A study of Mus musculus with 12 samples.

Results

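The genes that make superoxide, hydrogen peroxide and nitric oxide were followed through 12 total RNA-seq libraries of colon and whole blood from 6 mice. These genes are the epithelial NADPH oxidases Duox1, Duox2 and Nox1 with their partner subunits Duoxa2, Noxo1 and Noxa1, the phagocyte oxidase genes Cybb and Ncf1, and the inducible nitric oxide synthase Nos2. They were chosen by gene name, and the 9 genes stand among 53801 in the count table. All 9 were in the normalized table of the colon and 6 were in that of the blood. The 3 absent from the blood table were Duox1, Duox2 and Duoxa2.

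The model is acute ulcerative colitis (UC) brought on by dextran sulfate sodium (DSS), a sulfated sugar polymer that injures the lining of the gut when it is drunk. The mice were C57BL/6 males, 8 weeks old by the study's methods, with no engineered allele or transgene named. The mice labelled UC (numbers 1, 2 and 4) had 1.5% DSS of 36 kDa in their drinking water for 7 days, and the mice labelled control (7, 8 and 9) drank the same water without DSS. All were killed on day 8, and colon and blood came from the same animals. This gave 4 labelled groups of 3 libraries. The study chose the sequenced mice by their disease activity index, so the labelled groups are not random draws of treated animals.

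NADPH oxidases pass electrons from NADPH across a membrane to oxygen. Phagocytes use the enzyme built on gp91phox (Cybb) with the cytosolic organizer p47phox (Ncf1) to kill microbes, whereas colon epithelium carries NOX1, which works with NOXO1 and NOXA1, and DUOX2, which needs the maturation factor DUOXA2 and releases hydrogen peroxide at the luminal surface. Nos2 makes nitric oxide from arginine and is known as a gene that cytokines and microbial products switch on in epithelium and macrophages.

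Colon libraries held 69181049 to 103662306 counts and blood libraries 80867247 to 142536804. RNA of the 7SL genes made up 35.9% to 65.4% of a blood library but 4.90% to 6.50% of a colon library. A sample's source name and its tissue characteristic disagree throughout, and the groups used here follow the latter. The markers bear on that choice: all 8 epithelial marker genes were counted in the colon, with a summed normalized count of 754098 to 1099700 per library, while in the blood the sum was 185 to 343 and Krt20 and Cdx2 were at 0. The disease labels are used as given, but inflammatory genes did not follow them. Both normalized tables of the authors list their columns as mice 1, 7, 9, 2, 4 and 8, an order that is not that of the labels. Whether labels of some mice were exchanged cannot be settled from these files, so every value given as labelled UC over control holds only for the labels as they stand. The summed normalized count of 10 neutrophil markers was 37461, 7473 and 16575 in the colon of mice 1, 2 and 4 (labelled UC) and 28629, 17764 and 69359 in mice 7, 8 and 9 (labelled control). The same sum in the blood was 456391, 52009 and 47303 in mice 1, 2 and 4, and 152887, 39361 and 352442 in mice 7, 8 and 9. In both tissues the sum was highest in mouse 1 of the libraries labelled UC and in mice 7 and 9 of those labelled control.

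Duox2 was the most strongly counted catalytic oxidase subunit of the colon, and it was high in 3 libraries and low in the other 3. A normalized count is the count divided by a factor for each library. Duox2 stood at 75564, 4818 and 5980 normalized counts in the colon of mice 1, 2 and 4, and at 64102, 5768 and 87717 in mice 7, 8 and 9. Mice 1, 7 and 9 were high and mice 2, 4 and 8 low, with an 18.2-fold range and a 10.7-fold step between the third and the fourth highest library, so the labelled groups overlapped. Its maturation factor Duoxa2 stood at 12634, 508 and 535 in mice 1, 2 and 4, and at 9440, 518 and 19303 in mice 7, 8 and 9. The same 3 libraries were high, over a 38.0-fold range with a 17.6-fold step, and the 3 low libraries were within 508 to 535. Per kilobase of exon, Duox2 exceeded Duoxa2 by 1.07-fold to 2.63-fold in the 6 colon libraries.

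Duox1, the other dual oxidase, was counted at a far lower level. It stood at 319, 20.9 and 24.7 normalized counts in mice 1, 2 and 4, and at 139, 27.7 and 157 in mice 7, 8 and 9. The high libraries were again 1, 7 and 9, with a 15.3-fold range, and the highest was a library labelled UC. The mean per kilobase of exon was 21.8 normalized counts for Duox1 against 6005 for Duox2. Its own maturation factor Duoxa1 had 31, 0 and 12 counts in mice 1, 2 and 4 and 0, 9 and 34 in mice 7, 8 and 9, so it was at 0 in a library with high Duox1 and counted in a pair with low Duox1. Exons of Duoxa1 overlap those of Duoxa2 on the other strand, so these few counts are uncertain. Duox1 is also known from stratified epithelium. The summed count of squamous markers was 955, 405 and 266 in mice 1, 2 and 4 and 3643, 490 and 1130 in mice 7, 8 and 9. The sum was highest in mouse 7, whose Duox1 was below that of mouse 1, with 8 of the 9 markers counted and Sprr3 at 0. The part of squamous cells in the Duox1 counts was not tested.

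**Figure D1:**
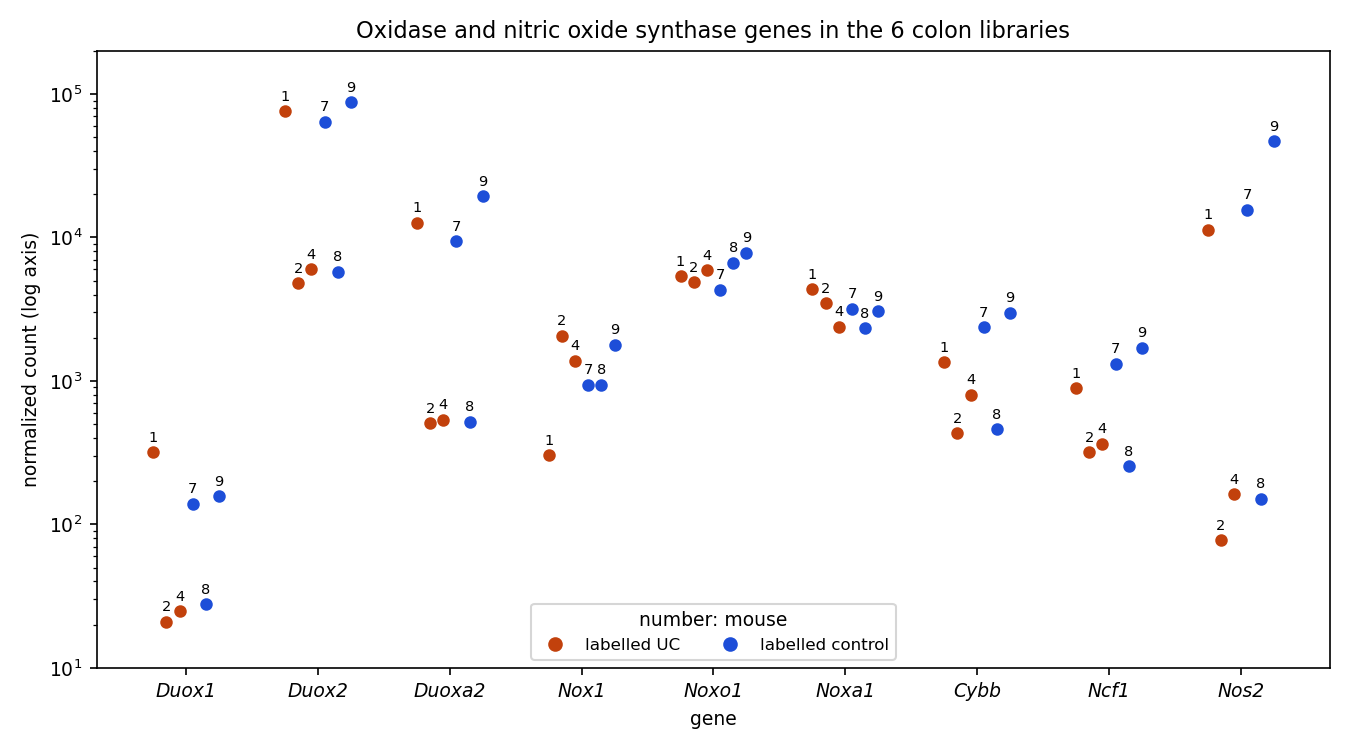
Normalized counts (log axis) of the 9 genes in the 6 colon libraries. Each point is 1 library with its mouse number, orange where labelled UC and blue where labelled control. Duox1, Duox2, Duoxa2, Cybb, Ncf1 and Nos2 were highest in mice 1, 7 and 9, whereas Nox1, Noxo1 and Noxa1 were not.

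The dual oxidase genes lie together on chromosome 2 (GRCm38), where 4 genes span 68726 bases. Duox2 (minus strand, 122279247 to 122298449) and Duoxa2 (plus strand, 122298900 to 122302885) are head to head with 450 bases between their GENCODE starts, and Duox1 (plus strand, 122315672 to 122347972) pairs in the same way with Duoxa1. The stretch upstream of Duoxa2 that touches no annotated exon or neighbouring RefSeq gene is shown first because it separates a pair of genes that were high in the same libraries. Nox1 is shown as the epithelial oxidase that was not, and Cybb and Ncf1 as the phagocyte pair. Each line gives bases directly upstream of a RefSeq start, 5′ to 3′ in the direction of the gene (GRCm38.p6), with motif matches in capitals: the TATA box TATAAA, the CCAAT box, the STAT core TTCNNNGAA and the NF-kB consensus, searched on both strands.
Duoxa2 (chr2:122298741-122298899, plus strand): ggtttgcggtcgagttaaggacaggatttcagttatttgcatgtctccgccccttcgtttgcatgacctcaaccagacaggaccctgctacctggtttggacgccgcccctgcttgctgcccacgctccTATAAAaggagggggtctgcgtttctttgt
Nox1 (chrX:134111855-134112104, minus strand): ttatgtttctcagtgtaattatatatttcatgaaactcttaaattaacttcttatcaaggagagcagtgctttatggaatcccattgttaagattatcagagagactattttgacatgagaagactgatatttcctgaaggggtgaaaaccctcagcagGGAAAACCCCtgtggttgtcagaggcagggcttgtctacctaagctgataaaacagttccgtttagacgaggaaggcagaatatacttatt
Cybb (chrX:9469325-9469574, minus strand): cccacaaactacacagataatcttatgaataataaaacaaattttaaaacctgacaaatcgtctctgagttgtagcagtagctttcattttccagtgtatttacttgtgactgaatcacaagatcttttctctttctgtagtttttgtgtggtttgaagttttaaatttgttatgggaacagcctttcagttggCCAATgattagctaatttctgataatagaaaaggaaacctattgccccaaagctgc
Ncf1 (chr5:134229626-134229875, minus strand): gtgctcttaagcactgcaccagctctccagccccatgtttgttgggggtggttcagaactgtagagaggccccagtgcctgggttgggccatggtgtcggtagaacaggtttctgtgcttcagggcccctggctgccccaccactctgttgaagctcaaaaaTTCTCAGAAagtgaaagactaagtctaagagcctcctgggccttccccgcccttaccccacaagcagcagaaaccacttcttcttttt
The Duoxa2 stretch of 159 bases held TATAAA starting 30 bases before the start, a motif found in 12.4% of the 32851 RefSeq windows of 250 bases. Cybb held CCAAT at 56 bases before its start (33.9% of windows, either strand), Ncf1 a STAT core at 88 bases (7.02%), and Nox1 an NF-kB consensus on the opposite strand at 91 bases (7.25%). In the pieces free of exons, Duox1 (250 bases) and Noxo1 (77 bases) held none of the 4 motifs, and Noxa1 (250 bases) held CCAAT at 57 bases on the opposite strand and the NF-kB consensus at 249 bases on both. RefSeq windows were found for 8 of the 9 genes, but that of Duox2 adjoins an annotated exon at its start and is not shown. These matches describe letters in a window and not binding.

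The Nox1 complex had another pattern. Nox1, the catalytic subunit, stood at 303, 2064 and 1378 normalized counts in the colon of mice 1, 2 and 4 and at 943, 943 and 1786 in mice 7, 8 and 9. The lowest library was mouse 1 and the highest mouse 2, both labelled UC, over a 6.81-fold range. Its organizer Noxo1 stood at 5382, 4892 and 5887 in mice 1, 2 and 4 and at 4310, 6674 and 7847 in mice 7, 8 and 9. Its activator Noxa1 stood at 4342, 3484 and 2393 in mice 1, 2 and 4 and at 3193, 2331 and 3047 in mice 7, 8 and 9. These partner subunits ranged over only 1.82-fold and 1.86-fold, and the labelled groups overlapped for all 3 genes of the complex. On the log2 scale with 1 added to each value, their ranges of 0.86 and 0.90 were below the median range of all 22182 colon genes, 1.15, whereas 14.4% of genes ranged as widely as Nox1 (2.76). Per kilobase of exon, Nox1 was 0.0513 to 0.384 of Noxo1. Of the exonic bases of Noxo1, 70.4% are shared with Tbl3 on the other strand (1400 to 2424 normalized counts in the colon), and the quantification had no strand set, so the Noxo1 level is uncertain.

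The phagocyte subunits varied together. Cybb stood at 1345, 432 and 803 normalized counts in the colon of mice 1, 2 and 4 and at 2357, 463 and 2982 in mice 7, 8 and 9. Ncf1 stood at 890, 318 and 364 in mice 1, 2 and 4 and at 1320, 253 and 1698 in mice 7, 8 and 9. Both were highest in mice 9, 7 and 1, in that order, over 6.90-fold and 6.70-fold ranges, and the step between the third and the fourth library, 1.67-fold and 2.45-fold, was smaller than the steps of Duox2 and Duoxa2. Per kilobase of exon, Cybb was 0.857 to 1.39 times Ncf1. Summed monocyte and macrophage markers were 20978, 12373 and 15229 in mice 1, 2 and 4 and 27029, 14337 and 32535 in mice 7, 8 and 9, with 10 of 10 markers counted. They had the order of Cybb in the 3 highest libraries, and Cybb divided by this sum ranged from 0.0323 to 0.0917. In bulk tissue, fewer cells of a type and less RNA per cell cannot be told apart.

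The epithelial markers varied far less than Duox2. Summed epithelial markers were 833319, 837359 and 985053 in mice 1, 2 and 4 and 1080140, 1099700 and 754098 in mice 7, 8 and 9. Duox2 per unit of that sum was 0.00525 to 0.00607 in mice 2, 4 and 8 and 0.0593 to 0.116 in mice 1, 7 and 9. The gap between the high and the low libraries of Duox2 therefore remained after division by the epithelial sum. The neutrophil markers given above were also highest in mice 1, 7 and 9, and their part in the levels of Cybb, Ncf1 and Nos2 was not tested.

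**Figure D2:**
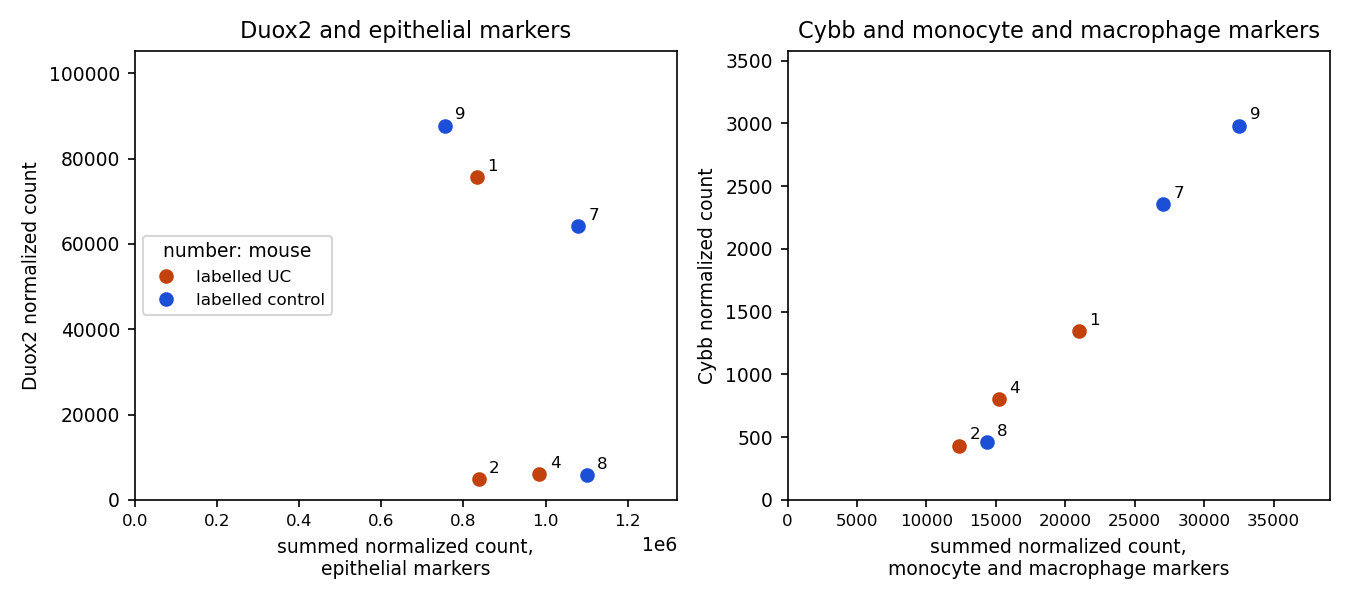
Duox2 against the summed normalized count of 8 epithelial markers (left) and Cybb against that of 10 monocyte and macrophage markers (right) in the 6 colon libraries, with mouse numbers, on linear axes from 0. Duox2 lay at 64102 or above in mice 1, 7 and 9 and at 5980 or below in the others at epithelial sums of 754098 to 1099700, while the highest Cybb values were at the highest macrophage sums.

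Nos2 had the widest range of all 9 genes. It stood at 11352, 77.5 and 162 normalized counts in the colon of mice 1, 2 and 4 and at 15611, 151 and 46979 in mice 7, 8 and 9. Mice 1, 7 and 9 were high, with a 606-fold range and a 70.2-fold step to the fourth library, and the highest value was in a library labelled control. Only 0.329% of colon genes ranged as widely on the log2 scale, on which Nos2 spanned 9.23 and ranked 73 of 22182. Per macrophage marker count, Nos2 was 0.541, 0.578 and 1.44 in mice 1, 7 and 9 and 0.00626 to 0.0106 in mice 2, 4 and 8.

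In 6 of the 9 genes, then, the 3 highest colon libraries were mice 1, 7 and 9, an arrangement that 18.2% of all 22182 colon genes had. It was found in Duox1, Duox2, Duoxa2, Cybb, Ncf1 and Nos2. None of the 9 had labelled groups without overlap in the colon, against 5.66% of all colon genes.

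The make-up of the oxidases differed between libraries accordingly. Among the catalytic subunits Duox1, Duox2, Nox1 and Cybb, summed per kilobase of exon, Duox2 took 96.7%, 93.0% and 92.3% in mice 1, 7 and 9, and 50.3%, 61.2% and 69.7% in mice 2, 4 and 8. Nox1 took 0.794%, 2.80% and 3.85% in mice 1, 7 and 9, and 44.1%, 28.9% and 23.3% in mice 2, 4 and 8. Cybb took 2.01% to 9.59% and Duox1 0.213% to 0.525% over the 6 libraries. Duox2 was thus the largest part in every colon library. Nox1 came second in mice 2, 4, 8 and 9, in mouse 9 by 3.85% against 3.66% for Cybb. In mice 1 and 7 it came below Cybb. In the blood, Cybb made up 99.5% to 99.9% of the same sum.

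**Figure D3:**
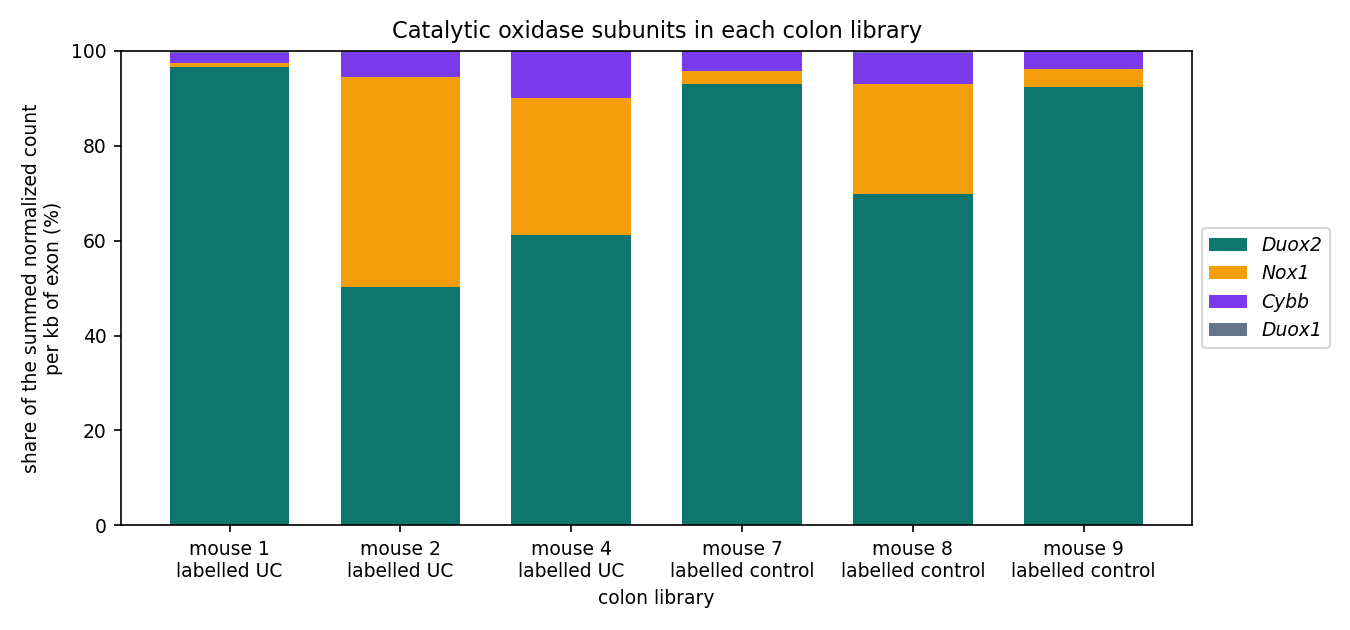
Share of each catalytic oxidase subunit in the summed normalized count per kilobase of exon (%), 1 bar for each colon library with its mouse number and label. Duox2 filled 92.3% to 96.7% of the bar in mice 1, 7 and 9 and 50.3% to 69.7% in mice 2, 4 and 8, where Nox1 filled 23.3% to 44.1%. The Duox1 share, at most 0.525%, is hardly visible.

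Ordered by mean normalized count per kilobase of exon, the colon levels were Duox2 6005 ± 5791, Duoxa2 4495 ± 4985, Nos2 2808 ± 4128, Noxa1 1937 ± 462, Noxo1 1936 ± 424, Nox1 374 ± 194, Cybb 241 ± 182, Ncf1 220 ± 164 and Duox1 21.8 ± 22.3 (SD, n = 6). Neighbours in this order differed by less than their SD, except that Noxo1 was 1430 or higher in every library, above the highest Nox1 value of 624, and that Ncf1 was 69.2 or higher, above the highest Duox1 value of 60.6. In mice 2, 4 and 8 the order was another one, with Noxa1 and Noxo1 at 1441 to 2215 above Duox2 at 711 to 883.

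In blood the phagocyte subunits were the oxidase genes with substantial counts. Cybb stood at 4902, 3819 and 3657 normalized counts in mice 1, 2 and 4 and at 4539, 3479 and 4295 in mice 7, 8 and 9. Its range was 1.41-fold and, at 0.49 on the log2 scale, below the median of all 16727 blood genes, 1.17. Ncf1 stood at 8571, 3341 and 3139 in mice 1, 2 and 4 and at 3205, 2462 and 3310 in mice 7, 8 and 9. Mouse 1 was the only library above 3341, and its Cybb to Ncf1 ratio per kilobase was 0.361 against 0.721 to 0.893 in the others. Mouse 1 also had the highest neutrophil marker sum of the blood libraries, and its part in the Ncf1 value was not tested.

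Nos2 was counted in only 3 blood libraries. Mouse 1 had 640 counts of it (674 normalized), mouse 7 had 18 (13.8) and mouse 9 had 45 (37.2), while mice 2, 4 and 8 had 0. A count of 0 allows up to 3 counts, for counting error only. The blood libraries with Nos2 counts were thus those of the mice with high colon Nos2, but the order differed: mouse 9 was highest in the colon and mouse 1 in the blood. Cybb and Nos2 were the members with their 3 highest blood libraries in mice 1, 7 and 9, against 11.8% of blood genes.

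The epithelial genes were at or near 0 in the blood. Duox1, Duox2 and Duoxa2 had 0 counts in all 6 libraries, and Noxa1 had 3 counts in mouse 7 and 0 elsewhere. Nox1 had 4, 2 and 3 counts in mice 1, 2 and 4 and 7, 4 and 15 in mice 7, 8 and 9. In normalized counts the Nox1 groups did not overlap (at most 4.21 labelled UC, at least 4.60 labelled control), an arrangement that 6.5% of blood genes had, but these few counts were too low for the test. Noxo1 stood at 35.8, 21.1 and 25.4 normalized counts in mice 1, 2 and 4 and at 30.6, 56.3 and 5.79 in mice 7, 8 and 9, while Tbl3, which shares its exons, had 319 to 453.

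The comparison that the labels define, UC against control, gave no call for any of the 9 genes in either tissue. The doubt about the disease labels bears on all of these values: the 6 genes that were highest in mice 1, 7 and 9 divide along the column order of the authors' tables, across the labels, and what the same test would give if labels were exchanged was not tested. A gene was called at an adjusted p of at most 0.05 and an absolute log2 fold change over 1. In the colon all 9 genes were tested, and 0.0045% of the 22238 genes tested were called. Among the epithelial genes the log2FC, labelled UC over control, was 0.16 (SE 1.18) for Duox1, -0.87 (1.30) for Duox2, -1.10 (1.56) for Duoxa2, 0.02 (0.65) for Nox1, -0.23 (0.24) for Noxo1 and 0.24 (0.26) for Noxa1. It was -1.18 (0.71) for Cybb, -1.06 (0.73) for Ncf1 and -2.43 (2.22) for Nos2. The adjusted p of edgeR's quasi-likelihood test was 0.99995 for each of the 9. Over all genes, 313 had an unadjusted p under 0.05 with edgeR, and DESeq2 called 6. The SE was as large as or larger than the log2FC in Duox1, Duox2, Duoxa2, Nox1, Noxo1 and Noxa1. A p above the threshold does not show that the labelled groups were alike, since the spread within each label was wide. Mouse 1, the library labelled UC in which these genes were high, weighed most on the values. Without it the log2FC became -2.25 (SE 0.83) for Duox1, -3.28 (1.11) for Duox2, -4.22 (1.43) for Duoxa2 and -7.44 (2.37) for Nos2, none of them called (edgeR adjusted p = 0.971 for each). Without mouse 9 it became -0.32 for Duox2, -0.16 for Duoxa2, -0.75 for Cybb, -0.62 for Ncf1 and -1.07 for Nos2.

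In blood, 4 of the 9 genes had enough counts to be tested and 0% of 16759 genes were called by edgeR, with 241 at an unadjusted p under 0.05 and 6 called by DESeq2. The log2FC was 0.00 (SE 0.22) for Cybb, 0.74 (0.40) for Ncf1, -0.17 (0.77) for Noxo1 and 3.68 (2.13) for Nos2, each with an adjusted p of 0.9998 in edgeR's quasi-likelihood test. The Nos2 value rested on mouse 1: without it the log2FC was -7.17 (SE 2.77, adjusted p = 0.996), against 2 libraries at 0. The Ncf1 value without that mouse was 0.12 (SE 0.20). The difference of the labelled effect between colon and blood, tested as an interaction over all 12 libraries, was -1.19 (SE 0.80) for Cybb, -1.82 (0.91) for Ncf1, -0.10 (0.77) for Noxo1 and -6.13 (3.49) for Nos2. None was called, at an adjusted p of 0.999994 in edgeR's test, and 0.0043% of 23258 genes were. Of all genes in that contrast, 793 had an unadjusted p under 0.05 and DESeq2 called 21.

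**Figure D4:**
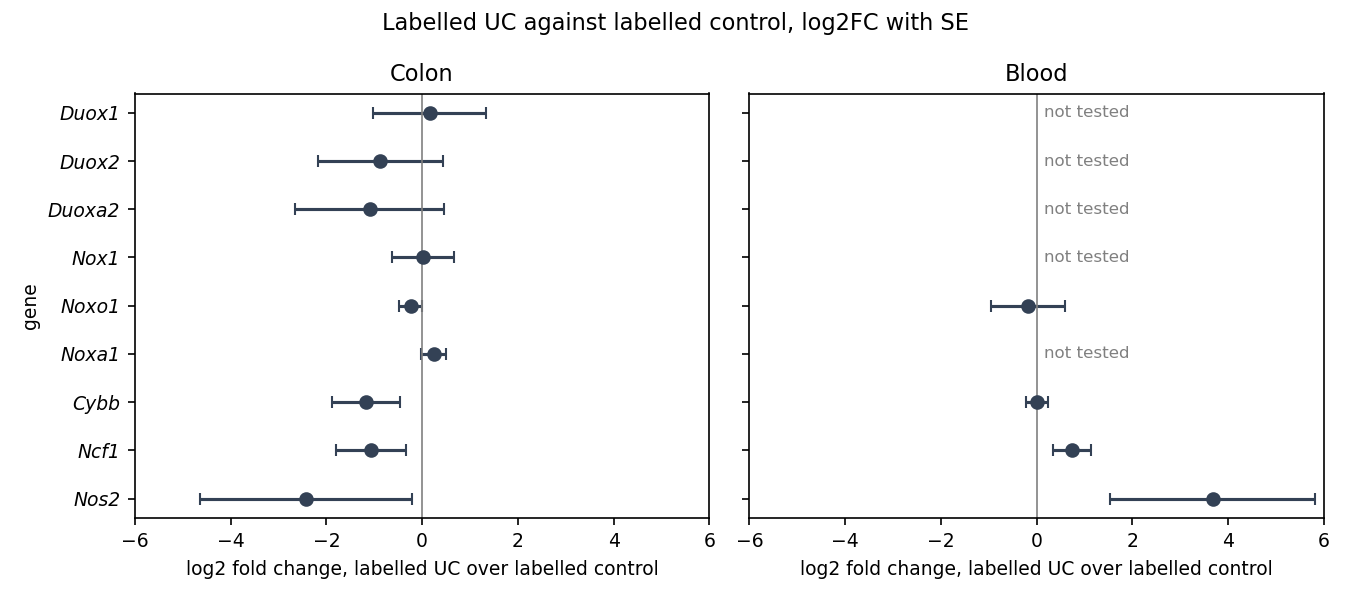
Log2 fold change of labelled UC over labelled control in colon (left) and blood (right), 3 against 3 libraries. Points are edgeR estimates and bars are 1 SE. No gene was called, and 5 genes had too few blood counts to be tested.

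The tissues differed in nearly all of these genes, in opposite directions for epithelial and phagocyte oxidases. The colon was compared with the blood over all 12 libraries in CPM, the count relative to a library total that TMM rescales. The disease labels do not form the sides of this comparison, but the fitted model held them and their interaction with tissue. The filter also used the labelled groups. The SE and p values therefore rest on the labels as they stand. The comparison called 58.5% of all 23258 genes, 37.7% higher in the colon and 20.8% higher in the blood, with a median log2FC of all genes of 0.46. All 6 epithelial genes were higher in the colon, both phagocyte genes were higher in the blood, and Nos2 was higher in the colon. Of all calls 64.4% were higher in the colon, and 91.1% were when library size alone set the scale, which moved the median log2FC of all genes to 2.57. The 9 genes kept their calls and directions under that scaling, but Cybb came to -1.26 and Ncf1 to -1.91.

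Nox1 averaged 6.83 ± 3.48 CPM in the colon and 0.0970 ± 0.0660 in the blood (SD, n = 6), with a log2FC of 6.24 (SE 0.54, adjusted p = 2.06e-06). Noxo1 averaged 32.3 ± 7.05 and 0.528 ± 0.301 CPM, with a log2FC of 5.94 (SE 0.46, adjusted p = 8.62e-07). For both, every colon library was above every blood library, by 70.4-fold and 61.2-fold in the means. Noxa1 averaged 17.4 ± 4.14 CPM in the colon, a ratio of 1981 to its 3 pooled blood counts with a 95% exact Poisson interval of 678 to 9608 (adjusted p = 2.86e-07).

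Duox2 averaged 227.0 ± 219 CPM, Duoxa2 39.9 ± 44.1 and Duox1 0.640 ± 0.651 in the colon. A floor of 3 counts per blood library averaged 0.0553 CPM over the libraries. These means were 4108-fold, 722-fold and 11.6-fold that mean floor, which was 0.0796 CPM in the blood library where it was highest. The adjusted p was 0.000188 for Duox2, 0.000993 for Duoxa2 and 0.00201 for Duox1 by edgeR. Even the low libraries held Duox2 at 26.3 CPM or above, 329.9-fold over the highest blood floor, so its absence from blood did not depend on mice 1, 7 and 9. The lowest colon library was 34.8-fold that floor for Duoxa2 but only 1.43-fold for Duox1.

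Cybb averaged 7.79 ± 5.94 CPM in the colon and 74.7 ± 11.1 in the blood, with a log2FC of -3.38 (SE 0.43, adjusted p = 3.93e-05). Ncf1 averaged 4.50 ± 3.38 and 72.8 ± 41.6 CPM, with a log2FC of -4.07 (SE 0.51, adjusted p = 3.40e-05). The blood means were 9.59-fold and 16.2-fold those of the colon, and no colon library reached the lowest blood library for either gene. Of the marker lists, 8 of 10 neutrophil genes and 5 of 10 monocyte and macrophage genes were also called higher in the blood, against 20.8% of all genes. The part of cell numbers was not tested.

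Nos2 averaged 69.1 ± 101 CPM in the colon and 2.21 ± 4.96 in the blood, with a log2FC of 5.44 (SE 1.93, adjusted p = 0.0254). The tissues overlapped, since blood of mouse 1 had 12.3 CPM and the 3 low colon libraries had 0.423 or more. The call was lost without mouse 7 (5.46, adjusted p = 0.0813) and without mouse 9 (5.36, adjusted p = 0.0796) in edgeR's test.

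**Figure D5:**
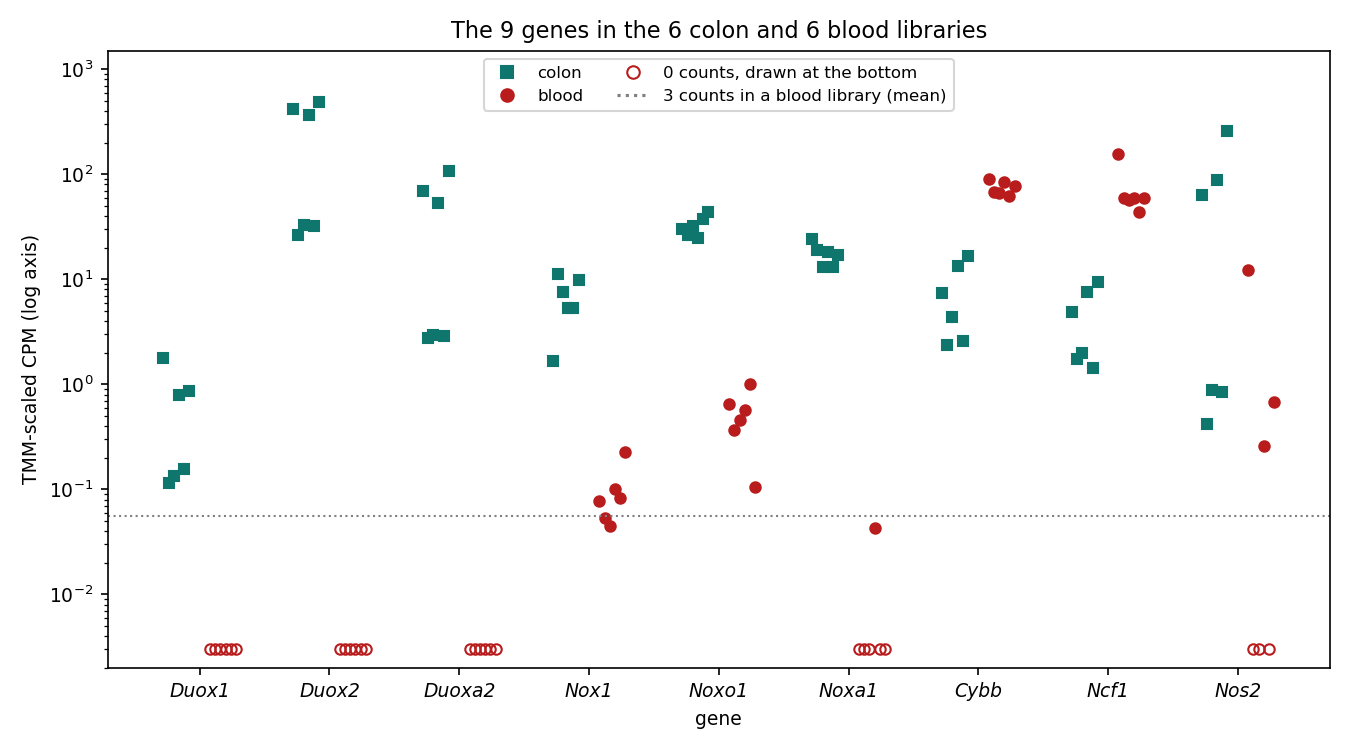
TMM-scaled CPM (log axis) of the 9 genes in the 6 colon libraries (squares) and 6 blood libraries (circles). Open circles at the bottom are libraries with 0 counts, and the dotted line is the level of 3 counts in a blood library, 0.0553 CPM. The epithelial genes were higher in the colon, Cybb and Ncf1 were higher in the blood, and the Nos2 values of the tissues overlapped.

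Other oxidase genes were split in a like way. Of 9 tested, 2 were called higher in the colon and 6 higher in the blood, against 37.7% and 20.8% of all genes. The list median log2FC was -2.14, against 0.46 over all genes. Nox4, an oxidase of mesenchymal cells, had 72 to 122 counts in each colon library and 0 in the blood, and Duoxa1 had 0 to 34 and 0. Among the genes higher in the blood were Cyba (-2.14, the p22phox partner of several oxidases), Ncf4 (-3.69, p40phox), Rac2 (-4.49, the GTPase of the phagocyte enzyme), Hvcn1 (-3.39, a proton channel) and Cybc1 (-1.78, a chaperone of gp91phox). Rac1, the widely expressed GTPase, did not pass (0.02, adjusted p = 0.967 by edgeR). With library size alone as scaling, only Ncf4, Rac2 and Hvcn1 stayed higher in the blood, Cyba (0.01) and Cybc1 (0.32) turned to the other side, and Rac1 was called higher in the colon (2.17), while all 9 members kept their call and direction. Nox3, an oxidase of the inner ear, was at 0 in every library.

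Within the colon these partner genes differed in range. Rac2 ran from 184 to 2025 normalized counts, Ncf4 from 81.9 to 759 and Cyba from 2222 to 5386, all 3 highest in mice 1, 7 and 9. Hvcn1 ran from 187 to 1008 with its highest libraries in mice 4, 7 and 9. In contrast, Rac1 (18413 to 25446), Cybc1 (1885 to 2692) and Nox4 (62.7 to 130) varied by at most 2.07-fold. The ranges of Rac2 (11.0-fold) and Ncf4 (9.26-fold) thus resembled those of Cybb and Ncf1, and that of the shared GTPase Rac1 (1.38-fold) those of Noxo1 and Noxa1. In the labelled comparison 0 of 9 were called in the colon (log2FC -1.06 to -0.13) and 0 of 7 in the blood (-0.76 to 0.60).

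Around Nos2, the genes of arginine and tetrahydrobiopterin supply were read from a list of 13. Arginase 1 (Arg1), which takes arginine from the synthase, stood at 692, 15.7 and 17.3 normalized counts in the colon of mice 1, 2 and 4 and at 315, 12.6 and 694 in mice 7, 8 and 9. Arginase 2 (Arg2) stood at 2146, 133 and 131 in mice 1, 2 and 4 and at 1768, 76.9 and 721 in mice 7, 8 and 9. Both arginases were highest in the libraries with high Nos2, over 55.0-fold and 27.9-fold ranges, though mouse 9, first for Nos2, was last of those 3 for Arg2. Gch1, the entry enzyme of tetrahydrobiopterin synthesis, ran from 2078 to 4556, its feedback regulator Gchfr from 146 to 507, and the citrulline-recycling enzyme Ass1 from 1423 to 5655, again with mice 1, 7 and 9 highest. The neuronal and endothelial synthases Nos1 (735 to 3727) and Nos3 (192 to 756) had the same 3 libraries on top. All 6 enteric neuron markers, Vip and Ret among them, did so too, against 18.2% of all colon genes. Of 5 endothelial markers 1 did, which is near that share. The endothelial sum was 9151 in mouse 2 against 7997 in mouse 1. The part of these cell types in the Nos1 and Nos3 counts was not tested.

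The remaining genes of that list had other patterns. Qdpr, which recycles tetrahydrobiopterin, was highest in mice 2, 4 and 8 (3355 to 4083, against 990 to 1817), and Pts, Spr and Asl varied by at most 2.35-fold. The arginine transporters Slc7a1 (1789 to 4351) and Slc7a2 (116 to 565) were highest in mice 2, 7 and 9, but the third place was nearly tied. Slc7a1 stood at 2675 in mouse 2 and 2662 in mouse 1, and Slc7a2 at 214, 211 and 206 in mice 2, 7 and 1. In all, 7 of the 13 were highest in mice 1, 7 and 9, against 18.2% of all colon genes, and 0 of 13 were called between the labels in the colon. In the colon against blood, 8 of 13 were called higher in the colon, against 37.7% of all genes tested. Among them were Spr (log2FC 1.59), Qdpr (1.92), Ass1 (1.17) and Asl (1.07). Gchfr was called higher in the blood (-4.30), as were 20.8% of all genes. Nos1, Nos3 and Arg1 were at 0 in all blood libraries, Slc7a2 was counted in 1 (31.6 normalized counts, mouse 1), and Gch1 (0.10), Pts (-0.86), Arg2 (-1.99) and Slc7a1 (0.18) were not called. With library size alone, 11 were higher in the colon, and Pts and Arg2 (0.08) changed side.

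Genes that dispose of superoxide and peroxide were mixed in pattern. Of 27, 12 were highest in the colon of mice 1, 7 and 9, against 18.2% of all colon genes. Between the labels 0 were called in either tissue. Of the 4 with the highest colon means, the peroxiredoxin Prdx6 was highest in mice 2, 4 and 8 (3.92-fold range) and Txnrd1, a thioredoxin reductase, in mice 1, 7 and 9 (2.55-fold), whereas Txn1 and Prdx1 varied by 1.56-fold and 1.45-fold. A list of inducing cytokines and related signalling factors held 11 genes, among them Nfkbia, which encodes an inhibitor of NF-kB. Of these, 9 were highest in mice 1, 7 and 9, against 18.2% of all colon genes. Irf1, Nfkb1 and Nfkbia were among the 9, with ranges of 2.04-fold to 3.96-fold. Between the labels 0 of 10 tested were called in the colon (median log2FC -1.10). Among the peroxidases, which use hydrogen peroxide as substrate, Lpo ran over a 24.0-fold range from 231 to 5538 normalized counts and was highest in mice 1, 7 and 9, whereas Mpo and Epx were too low to be tested in the colon.

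Likeness of pattern was measured as the root-mean-square difference of mean-centred log2 normalized counts, with 1 added, over the 6 libraries of a tissue, among 22122 colon and 16369 blood genes with a mean of at least 10. Nearest to Duox2 in the colon were Trim15 (0.16), Piwil2 (0.20) and Trdc (0.23). Duoxa2 was in position 38 (0.48) and Duox1 in position 73 (0.57), whereas Nox1 was in position 20250 (2.43). Nearest to Nox1 were Snora62 (0.22), Ighv1-59 (0.30) and Eif4e (0.31). Nearest to Cybb were Cd53 (0.10), a leukocyte membrane protein, Gm44955 (0.13) and Clec4n (0.14), a myeloid lectin, with Ncf1 in position 25 (0.22). Among the nearest to Nos2 were Il22 (0.61) and Gm5483 (0.69), both listed at 0 in mice 2, 4 and 8, with Duoxa2 in position 97.

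In the blood the nearest genes to Cybb were Cltc (0.05), the clathrin heavy chain, Afg3l1 (0.05) and Ist1 (0.06), and Ncf1 was in position 8632 of the list (0.45). The nearest to blood Nos2 were Saa3 (0.83), an acute-phase protein, Pnpla1 (0.84) and Gm7457 (0.88). Saa3 stood at 610 normalized counts in mouse 1 and at 63.6 and 81.1 in mice 7 and 9, and was listed at 0 in mice 2, 4 and 8. Cybb and Ncf1 were thus close in pattern across the colon libraries and further apart across the blood libraries. In the blood mouse 1 alone stood out, with a Cybb to Ncf1 ratio per kilobase of 0.361 against 0.721 to 0.893 in the others. Blood Cybb itself spanned only 0.49 on the log2 scale.

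The remaining genes share a smaller part of their exonic bases with other genes, or none. Nox1 (chromosome X, 134086421 to 134221956, minus strand) shares 12.1% of its exonic bases with Cstf2 on the other strand. Cstf2 had 690 to 926 normalized counts in the blood, so the few Nox1 counts there cannot be told apart from Cstf2 reads. In the colon Cstf2 had 2984 to 4314, above every Nox1 value (303 to 2064), so the colon Nox1 level is also uncertain. Duoxa2 shares 42.8% of its exonic bases with Duoxa1, whose colon level was at most 30.6. In turn, 17.1% of the exonic bases of Duoxa1 are shared with Duoxa2, which ran from 508 to 19303 in the colon. The few Duoxa1 counts are therefore uncertain. Ncf1 (chromosome 5, 134220053 to 134229625, minus strand) shares 11.1% with Gtf2ird2, which ran from 277 to 551 normalized counts in the colon, against 253 to 364 for Ncf1 in mice 2, 4 and 8. Noxa1 (chromosome 2, 25085667 to 25095149, minus strand) shares 3.09% with Entpd8, which ran from 3933 to 8308 in the colon, against 2331 to 4342 for Noxa1. Noxo1 lies on chromosome 17 (24696234 to 24700529, plus strand), Nos2 on chromosome 11 (78920787 to 78960254, plus strand) and Cybb on chromosome X (9435252 to 9487771, minus strand), the last pair with no overlapping annotated exon.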

How the data were processed

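Total RNA of colon and whole blood was depleted of ribosomal RNA, and that of blood also of globin RNA, and sequenced on an Illumina HiSeq. Per the study's methods and the submitters' processing notes, reads were mapped to GRCm38 with STAR and quantified with StringTie 1.3.4c under default options, which set no strand. The authors deposited a table of whole-number gene counts derived from StringTie coverage. The deposited normalized tables, 1 for each tissue, are a signal scale: the authors divided each count by 1 size factor per library, which was 0.791 to 1.21 in the colon and 0.664 to 1.31 in the blood and the same for 100% of genes (tolerance 1e-06). They left 155 counted genes out of the colon table and 94 out of the blood table. Coverage shared by overlapping genes can move counts between them, and the separate tables allow comparison of normalized counts inside 1 tissue only.

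Groups followed the disease state and tissue labels, and mouse numbers the titles. Gene positions and exonic bases came from GENCODE vM21, which held 53620 of 53801 identifiers. Values per kilobase are normalized counts divided by all exonic bases of a gene. Tests used edgeR 4.0.16 under R 4.3.3 (filterByExpr, TMM, glmQLFit, glmQLFTest, Benjamini-Hochberg over all genes tested), each tissue alone for the labelled comparison and all 12 libraries for the interaction and for colon against blood. SE values were obtained as log2FC over the root of the F statistic. Calls needed an adjusted p of at most 0.05 and, except for the interaction, an absolute log2FC over 1. Alternatives were RLE scaling, library size only, no filter, a mean count of at least 10, DESeq2 1.42.0, only genes of the normalized tables, each mouse left out, and a replicate block on mouse number. Simulated counts with 200 changed genes were used to check the edgeR fits of the labelled comparison in each tissue and of colon against blood. The interaction and the other steps were not checked in this way.

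The study took colon and blood from the same 6 mice, so the numbers pair the samples. Deviations of same-numbered libraries from their group means correlated at r from -0.0151 to 0.141 across 23258 genes, which are not independent replicates.

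The 9 genes and all gene lists were chosen with earlier results of these data known. Of 152 listed symbols 151 were found. All 9 members are named, as is every tested gene of the other oxidase and nitric oxide lists, at most 4 genes of highest mean from each further list, and the 3 nearest genes in pattern, apart from a few genes that are not reported here. RefSeq windows (GRCm38.p6) gave the upstream sequences. Floors of 3 counts and the Poisson interval cover counting error only.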

Additional observations from a re-analysis of the deposited data

How the results depend on the processing

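In the labelled comparison no alternative that gave a value called any of the 9 genes. DESeq2 gave none for colon Duox1 or blood Nos2. Over all genes, DESeq2 called 6 in the colon, 6 in the blood and 21 for the interaction, where edgeR called 1, 0 and 1. Library size only gave 1 in the blood, and leaving out each mouse in turn gave 0 in the colon each time, 0 to 3 in the blood and 1 to 2 for the interaction. A replicate block on mouse number brought the interaction count to 0, and the block changed no other call. Leaving out mice moved colon Duox2 between -3.28 and -0.32, Duoxa2 between -4.22 and -0.16 and Nos2 between -7.44 and -1.07, and turned the sign of several uncalled values. The colon log2FC of Duox1 then ran from -2.25 to 0.66 and that of Nox1 from -0.55 to 0.49. In the blood Cybb ran from -0.13 to 0.086, Noxo1 from -0.66 to 0.58 and Nos2 from -7.17 to 4.89, and for the interaction Noxo1 ran from -0.74 to 0.58 and Nos2 from -6.19 to 0.79. Blood Cybb was also -0.36 with library size only and -0.015 with genes of the normalized tables only. The cause was not tested. In colon against blood, every member kept its direction under all alternatives that gave a value, and only Nos2 lost its call, without mouse 7 or without mouse 9. DESeq2 gave no value for Duox1 there either.

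With 3 libraries per label, the spread within a label was wide for Duox2, Duoxa2 and Nos2. Blood counts of Nox1 and Noxa1 were too few for a test of the labels. The high share of 7SL RNA left fewer counts for other genes in blood, so zeros there are limits. Genes overlapping on opposite strands could not be separated.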
